A study of Mus musculus with 22 samples.

Results

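Genes that encode peptide hormones of the gut were followed across sorted cells of the mouse colon crypt, namely Gcg, Pyy, Insl5, Nts, Sct, Sst, Cck, Ghrl and Gip. They were chosen by name and make up 9 of the 24421 genes counted. RNA came from 22 libraries of untreated wild type C57BL/6N males aged 5 to 7 weeks, whose colons were dissociated with EDTA and flow sorted so that RNA could be compared between stem cells and the cell types that arise from them. All sorted cells were live, Epcam+ and negative for Cd31 and Cd45. The 3 stem cell libraries (Stem) were Cd44highest with Cd24low and Ckit-, and the 3 libraries of absorptive progenitors (AbsPro) were Cd44med/hi with the same Cd24 and Ckit gates. The 4 libraries of secretory progenitors, deep crypt secretory cells and goblet cells (SecPDG) were Cd44hi with Cd24med and Ckitmed, and the 5 of tuft cells (Tuft) were Ckit+ with Cd24hi. The 5 enterocyte libraries (Ent) and the 2 enteroendocrine libraries (EEC) shared the gate Cd44low/- and were parted by Cd24, absent in Ent and present in EEC. Replicate libraries came from independent mice and sorts, and some libraries could combine several sorts, which were pooled where needed. Stem and AbsPro libraries came from single mice and the others from pools, with at least 2500 cells per sample. A gate can hold more than 1 kind of cell, and in such bulk RNA fewer hormone cells and less hormone RNA per cell cannot be told apart.

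Peptide hormones of the gut are made by enteroendocrine cells, scattered secretory cells of the epithelium that sense the contents of the lumen. A hormone is made as a longer precursor, cut by prohormone convertases, packed with chromogranins into dense core granules and released on stimulation. Proglucagon (Gcg, cut to GLP-1 and GLP-2 in the gut), peptide YY (Pyy) and insulin-like peptide 5 (Insl5) are the classical products of colonic L cells. Neurotensin (Nts) is made in cells closely related to these, somatostatin (Sst) in D cells, and secretin (Sct) in several kinds of enteroendocrine cell, among them serotonin-making enterochromaffin cells. Cholecystokinin (Cck), ghrelin (Ghrl) and gastric inhibitory polypeptide (Gip) are best known from the small intestine and stomach.

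Sequence before the start of transcription is shown for Gcg and Pyy, which were high in the same libraries, and for Sct, which was high in others. The 150 bases just upstream of the RefSeq start were read 5′ to 3′ along the gene from the GRCm38.p6 table, at chr2:62483654-62483803 for Gcg, chr11:102107833-102107982 for Pyy and chr7:141279134-141279283 for Sct, all on the minus strand. Capitals mark 3 short motifs searched on both strands, the E-box CAGATG, the cAMP element TGACGTCA and the TATA box TATAAA.
Gcg: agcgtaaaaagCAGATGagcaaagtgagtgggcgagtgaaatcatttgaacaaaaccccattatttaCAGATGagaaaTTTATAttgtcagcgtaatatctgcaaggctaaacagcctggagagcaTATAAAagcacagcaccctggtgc
Pyy: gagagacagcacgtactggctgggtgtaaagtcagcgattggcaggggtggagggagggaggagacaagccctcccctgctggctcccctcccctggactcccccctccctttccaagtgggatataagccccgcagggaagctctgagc
Sct: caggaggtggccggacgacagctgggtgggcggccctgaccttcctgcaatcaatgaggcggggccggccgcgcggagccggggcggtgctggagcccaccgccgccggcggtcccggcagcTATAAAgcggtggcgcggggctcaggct

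The Gcg promoter held the E-box letters at 2 places, starting at base -139 and base -83 from the start, and TATAAA at base -24 with its reverse complement at base -72. That of Sct held TATAAA at base -28 and an E-box at base -242, before the bases shown, and that of Pyy none of the 3 motifs in the 250 bases searched. Over all 32851 promoter windows of that length, 14.4% held the E-box, 12.4% the TATA box and 1.55% the cAMP element. The only cAMP element among the 9 genes was in Sst at base -48 (chr16:23890874-23890903, minus strand). Only 30 bases around it are shown, because GENCODE begins the gene farther upstream and places this stretch inside it.
Sst: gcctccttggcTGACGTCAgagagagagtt

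Levels are given as normalized counts, that is, counts on a gene divided by the library size after TMM scaling and multiplied by the mean of these sizes. Reads on genes came to 15314543 to 22462518 in libraries of Stem, AbsPro and SecPDG, 9930648 to 20892532 in Tuft, 5950619 to 12966128 in Ent, and 4122122 and 13132315 in EEC 1 and EEC 2. EEC 1 stood apart by its depth and by the reads on 1559 genes of olfactory receptor and other families thought to be silent in this tissue, at 7259 CPM, against 635 in EEC 2. These reads also differed between the other cell types, with 805 to 4007 CPM in Ent, 185 to 1517 in Tuft, 47.1 to 149 in SecPDG, 13.6 to 161 in AbsPro and 56.7 to 95.7 in Stem. Reads assigned to no feature can lie in introns or between genes. As a share of uniquely aligned reads, they made up 89.7% in EEC 1 and 64.5% in EEC 2. They made up 66.8 to 83.1% in Ent and 45.2 to 48.5% in Stem. In Tuft they made up 43.4% in Tuft 5, which also had the 185 CPM, and 59.5 to 68.0% in the other libraries. From the reads on the 1559 genes a background was estimated for each hormone gene per kilobase of exon, and it is given below beside the main means of which it made up more than 5%. The label of EEC was checked against 6 markers of enterochromaffin cells (Tph1, Chga, Chgb, Tac1, Ddc and Slc18a1), whose sum was 596245 and 1715490 normalized counts in the EEC libraries, against 7266 to 27330 in Ent and 584 to 994 in Stem. No marker was at 0 in EEC, and both libraries were above all others. Markers of other cells were present in EEC as well, with 8 enterocyte markers summing to 23408 to 150863 (56506 to 83199 in Ent) and 8 tuft cell markers to 4276 to 9062 (26467 to 71210 in Tuft, 429 to 1026 in Ent). Their part in the hormone values of EEC was not tested.

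The 9 genes differed in their pattern over the 6 cell types. Gcg, Pyy and Nts were highest in Ent, with AbsPro next. Sct and Sst were highest in EEC. Insl5, Cck, Ghrl and Gip stayed under a mean of 50 normalized counts over all libraries, the minimum for a call, so that 5 genes could be called and 4 could not. A call also needed a Benjamini-Hochberg adjusted p under 0.01 in edgeR's quasi-likelihood test over 22781 genes.

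**Figure D1:**
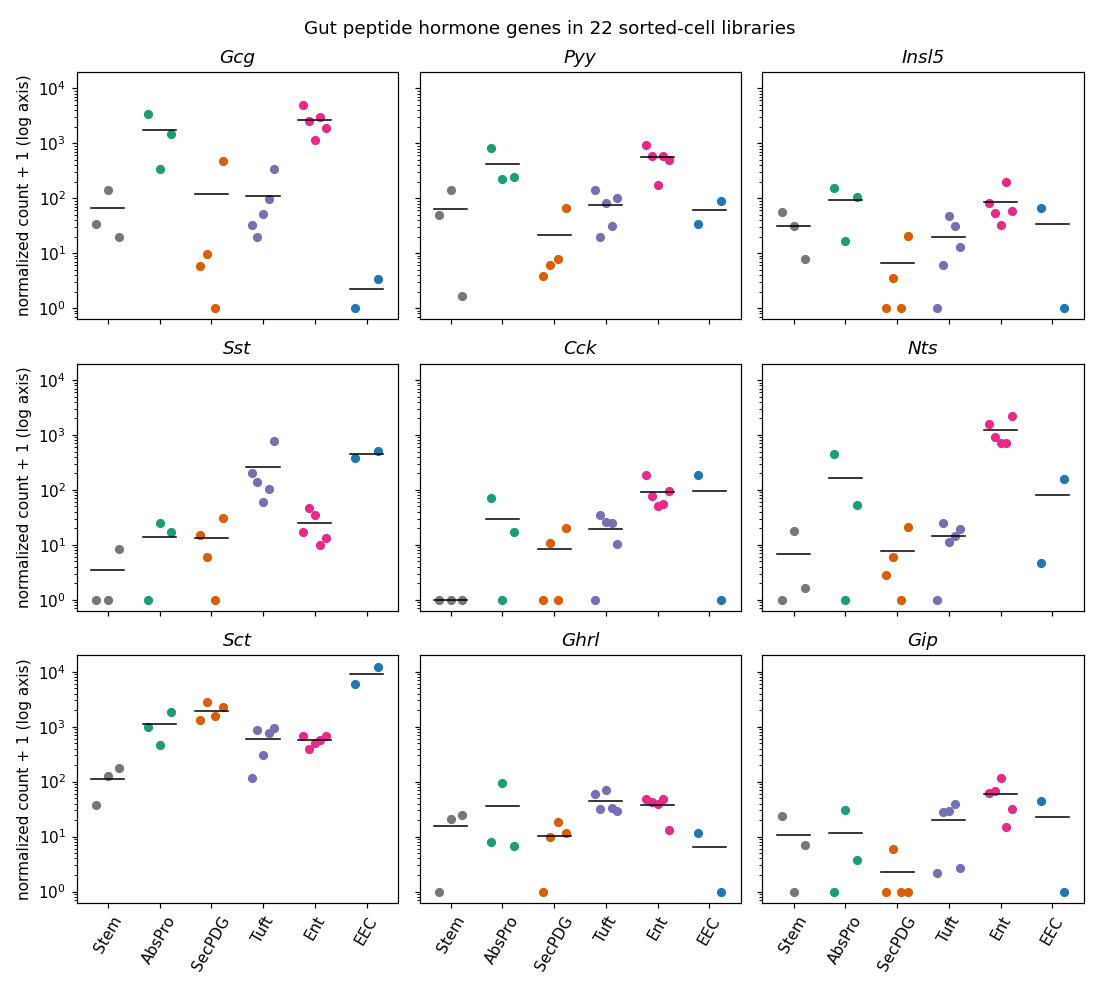
Normalized count plus 1 (vertical log axis) of each hormone gene in every library (points), by sorted cell type, with the mean of the cell type as a bar. Gcg, Pyy and Nts are highest in Ent, Sct and Sst in EEC, and Gcg is near 0 in both EEC libraries.

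Against Stem, AbsPro had 4 of the 9 genes called, all higher (Gcg, Pyy, Nts and Sct), where 0.588% of all genes tested were called. SecPDG had 1 (Sct, higher) against 4.97% of all genes, and Tuft had 2 (Sst and Sct, higher) against 12.1%. Ent had 4 (Gcg, Pyy, Nts and Sct, higher) against 22.2%, and EEC had 2 (Sst and Sct, higher) against 19.9%. No hormone gene was called lower than in Stem. EEC had 4 called against AbsPro (18.3% of all genes), 2 against SecPDG (21.2%), 1 against Tuft (9.29%) and 5 against Ent (4.69%). Among the other pairs, 3 were called in SecPDG against AbsPro (3.72%), 4 in Tuft against AbsPro (8.13%), 1 in Ent against AbsPro (16.2%), 2 in Tuft against SecPDG (3.37%), 4 in Ent against SecPDG (23.3%) and 4 in Ent against Tuft (8.44%). Comparisons share libraries and are not independent of each other.

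**Figure D2:**
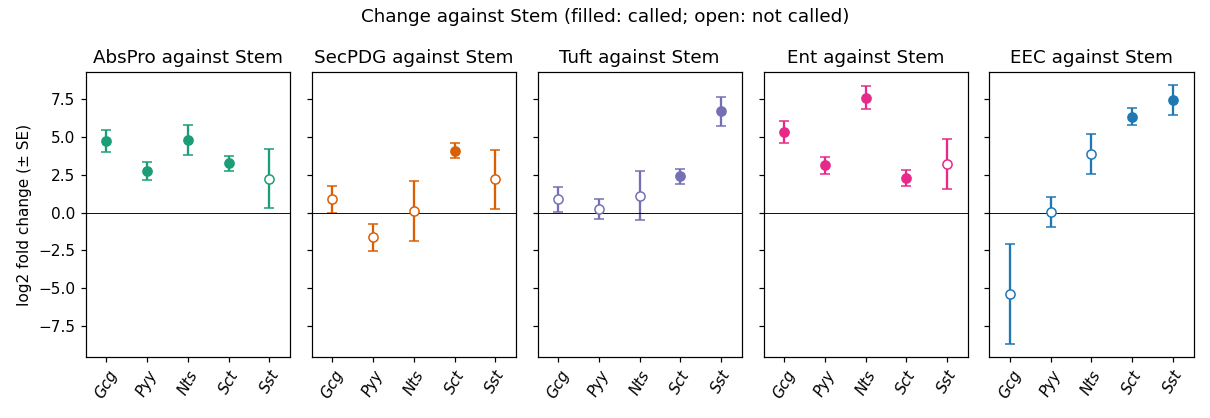
Log2 fold change against Stem (vertical axis, bars ± SE of the edgeR fit) of the 5 genes that passed the minimum mean, 1 panel per cell type, filled where called. AbsPro and Ent share the calls of Gcg, Pyy, Nts and Sct, while Tuft and EEC share those of Sst and Sct.

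Gcg (ENSMUSG00000000394, chr2:62474530-62483650, minus strand, GRCm38) had the largest mean share of the hormone transcripts of Ent per exon length, 35.5%, and was almost absent from EEC. Its normalized counts were 4871, 2534, 1159, 2942 and 1876 in Ent, 3421, 334 and 1467 in AbsPro, and 32.9, 140 and 18.9 in Stem. All Ent and AbsPro libraries lay above all Stem libraries, by 5.34 ± 0.72 (SE) on the log2 scale in Ent (adjusted p = 5.72e-08) and 4.73 ± 0.74 in AbsPro (adjusted p = 6.14e-05). With edgeR's legacy fit and with DESeq2's Wald test the AbsPro call of Gcg was lost, at adjusted p = 0.0576 and 0.0356.

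Ent and AbsPro overlapped in Gcg and were not told apart (log2 fold change 0.61 ± 0.50, adjusted p = 0.287). In SecPDG the values were 4.73, 8.70, 0 and 466, so that 1 library held nearly all the counts, and in Tuft they were 31.7, 18.9, 50.6, 96.6 and 340. Neither cell type was called against Stem (adjusted p = 0.73 and 0.41), and both lay below AbsPro on average (adjusted p = 1.28e-05 and 1.69e-06), with SecPDG 4 and Tuft 5 inside the AbsPro range.

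In EEC, Gcg had 0 counts in EEC 1, which allows up to 5.42 normalized counts, and 2 counts in EEC 2, or 2.43 normalized. This was 1795-fold below Ent, with a 95% counting interval of 497 to 14822 (adjusted p = 3.37e-06), and 1265-fold below AbsPro, with an interval of 350.1 to 10448 (adjusted p = 1.31e-05). The intervals cover counting error only. EEC was below each Stem library too, but the difference missed the threshold (adjusted p = 0.171), and the 2 counts were below the estimated background of 8.79 normalized counts.

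Pyy (chr11:102106676-102107832, minus strand), whose product slows gut transit and curbs appetite, was high in the same cell types as Gcg. It stood at 946, 589, 172, 586 and 498 in Ent and at 803, 221 and 239 in AbsPro, against 48.2, 138 and 0.674 in Stem. The 3 cell types kept the same order as for Gcg, and no Stem library reached an Ent or AbsPro library. The change against Stem was 3.11 ± 0.54 (log2, SE) in Ent (adjusted p = 6.96e-06) and 2.75 ± 0.57 in AbsPro (adjusted p = 0.00274).

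The AbsPro call of Pyy was lost without Stem 1 (adjusted p = 0.0399), without Stem 3 (0.0778) and without AbsPro 1 (0.235), where the log2 change ranged from 1.88 to 2.60. It was also lost with scaling by library totals (0.0112), in a fit of only the 2 cell types (0.0127), with edgeR's legacy fit (0.226) and with DESeq2 (0.112). Tuft held 140, 18.9, 82.2, 29.9 and 99.5, and SecPDG 2.84, 4.97, 6.74 and 66.6. All Tuft and SecPDG libraries lay below all AbsPro libraries (adjusted p = 0.000276 and 3.5e-06).

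Unlike Gcg, Pyy was measured in both EEC libraries, at 32.5 and 88.6, inside the range of Stem (adjusted p = 1). The estimated background was 6.13% of this mean. EEC was lower than Ent by a log2 change of -3.08 ± 0.74 (adjusted p = 0.00315) and lower than AbsPro by -2.72 ± 0.78 (adjusted p = 0.00409). The first call was lost without Ent 1 (adjusted p = 0.013), EEC 1 (0.0391) or EEC 2 (0.0121), and the second without AbsPro 1 (0.057) or EEC 1 (0.044). Both Pyy calls were also lost with DESeq2's size factors (adjusted p = 0.0103 and 0.0522), in fits of only the 2 cell types (0.0175 and 0.0495), with the legacy fit (0.105 and 0.0522) and with DESeq2 (0.0235 and 0.106), and the second with library totals (0.028).

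Insl5 (chr4:103017872-103026842, minus strand), a relaxin family peptide of colonic L cells, had its highest means in AbsPro and Ent, as Gcg and Pyy did, but stayed below the minimum mean. Its values were 151, 15.5 and 104 in AbsPro, 81.9, 53.9, 31.2, 196 and 56.8 in Ent, and 54.3, 30.7 and 6.74 in Stem. The ranges of all 3 overlapped, and neither AbsPro (adjusted p = 0.424) nor Ent (adjusted p = 0.0557) differed from Stem at the threshold. SecPDG held 0, 2.49, 0 and 19.6 and lay below every Ent library (adjusted p = 0.00125, not called because of the mean). Tuft ranged from 0 to 45.5, and the EEC libraries held 65.1 and 0.

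Nts (chr10:102481756-102490486, minus strand), a regulator of gut motility and fat uptake, had the largest fitted change from Stem to Ent of the 5 genes that could be called. It stood at 1591, 902, 705, 716 and 2211 in Ent and at 0, 16.6 and 0.674 in Stem, 7.59 ± 0.76 higher on the log2 scale (SE, adjusted p = 4.02e-12). Every Ent library exceeded every other library of the study. Nts was the only hormone gene called between Ent and AbsPro, 2.80 ± 0.46 higher in Ent (adjusted p = 6.44e-06).

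AbsPro itself held 440, 0 and 51.6, so that its libraries ran from none to 440, all below the Ent mean of 1225. It was called above Stem (4.78 ± 0.98, adjusted p = 0.00199), but without AbsPro 1 the adjusted p was 0.879 and the log2 change 1.97, and the call was also lost without Stem 1 (0.0339) or Stem 3 (0.0399). The same held for Nts in a fit of only the 2 cell types (0.0248), with the legacy fit (0.0711) and with DESeq2 (0.0938). AbsPro 2, the library with no Nts count, overlapped Stem.

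In the remaining cell types Nts was low, at 1.89, 4.97, 0 and 20.6 in SecPDG and at 0, 24.0, 10.1, 13.8 and 18.4 in Tuft, where the estimated background came to 22.5% of the mean. The EEC libraries differed from each other, with 3.62 and 155, and the background estimate was 9.24% of their mean. Both lay below all Ent libraries (log2 change -3.73 ± 0.67, adjusted p = 2.46e-05), a call that was lost with the legacy fit (0.0899) and with DESeq2 (0.0993). EEC did not pass the threshold against Stem (adjusted p = 0.0141).

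Sct (ENSMUSG00000038580, chr7:141278330-141279133, minus strand), which encodes the hormone that drives bicarbonate secretion, was the hormone gene that rose in all 5 cell types against Stem. Stem held 36.0, 125 and 177 normalized counts. The EEC libraries held 5948 and 12405, above every other library, and 6.32 ± 0.56 higher than Stem on the log2 scale (SE, adjusted p = 9.65e-14). Against the other cell types, EEC was higher by 2.24 ± 0.42 (SecPDG, adjusted p = 2.07e-05) to 4.03 ± 0.41 (Ent, adjusted p = 3.8e-11).

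SecPDG came next, at 1302, 2755, 1541 and 2239.8 (log2 change 4.08 ± 0.51 against Stem, adjusted p = 1.25e-08). AbsPro held 972, 462 and 1853 (3.24 ± 0.52, adjusted p = 9.02e-05). The 2 progenitor populations overlapped and were not told apart (adjusted p = 0.314).

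Sct was lower again in Tuft, at 116, 867, 308, 753 and 944, and in Ent, at 684, 396, 507, 569 and 676, both below SecPDG in every library (adjusted p = 0.00134 and 0.000103). Against Stem the log2 changes were 2.40 ± 0.50 (adjusted p = 0.000281) and 2.29 ± 0.51 (adjusted p = 0.00024). Tuft 1 lay inside the Stem range, while the Ent libraries all lay above it. The means were 566 ± 121 (SD, n = 5) in Ent and 1959 ± 663 (SD, n = 4) in SecPDG. The calls of Sct against Stem and between EEC and the other cell types were all kept when any single library was left out; the 2 calls against SecPDG in Tuft and Ent were not run that way.

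Sst (ENSMUSG00000004366, chr16:23889573-23890958, minus strand), whose product inhibits the release of other gut hormones, was high in EEC and Tuft and low elsewhere. EEC held 385 and 511, and Tuft held 199, 139, 59.4, 105 and 775. In Stem only 1 of the 3 libraries had any count, at 7.41. The rise against Stem was 7.42 ± 1.01 (log2, SE) in EEC (adjusted p = 2.28e-08) and 6.70 ± 0.96 in Tuft (adjusted p = 1.27e-07), with no overlap in either.

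EEC and Tuft overlapped in Sst because of Tuft 5 and were not told apart (adjusted p = 0.297). Without Tuft 5 the EEC libraries were 1.85 higher on the log2 scale (adjusted p = 0.0034). Tuft 5 also had the highest Gcg and the highest chromogranins of its cell type, Chga at 8968 against 439 to 1466 in the other Tuft libraries, and whether these go with its Sst was not tested.

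Sst in Ent was 16.1, 45.9, 34.7, 9.12 and 12.5, below all Tuft libraries (log2 change -3.49 ± 0.60, adjusted p = 8.25e-06) and below EEC (EEC higher by 4.21 ± 0.68, adjusted p = 3.46e-06). The call between EEC and Ent was lost with the legacy fit (0.0181) and with DESeq2 (0.0101). The background estimate was 14.3% of the Ent mean. AbsPro held 0, 23.6 and 15.9 and SecPDG 14.2, 4.97, 0 and 29.4, neither separated from Stem (adjusted p = 0.886 and 0.68). Over 11 genes, markers of enteric neurons and glia, cells that also use neuropeptides, summed to 3213 and 4505 in EEC. They summed to 796 to 1956 in Tuft and to 473 to 1230 in Ent, where Sst was low. Stem held 94.9 to 139. Of the 11 genes only 3 passed the minimum mean, and in Tuft 1, with a sum of 1069, 5 were at 0. Whether enteroendocrine or tuft cells themselves use these genes was not tested, nor was any part of such cells in the Sst values.

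Cck (chr9:121489824-121495694, minus strand), which empties the gallbladder and slows the stomach, had no count in any Stem library. It held 183, 76.9, 50.8, 54.7 and 94.2 in Ent, at least 127-fold above the 3 counts that a Stem total of 0 allows. The estimated background was 6.67% of that mean. All Ent libraries lay above all Tuft libraries (0, 34.1, 25.3, 24.2 and 9.20) and all SecPDG libraries (0, 9.95, 0 and 19.6). AbsPro held 71.4, 0 and 15.9. The EEC libraries were split, with 186 in EEC 1 and 0 in EEC 2, so that 1 library carried the whole mean, of which the background estimate was 8.24%.

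Ghrl (chr6:113716119-113719880, minus strand), the hunger hormone of the stomach, stayed below 100 normalized counts in every library. Tuft held 58.6, 30.3, 68.3, 32.2 and 28.4 and Ent 48.3, 41.3, 38.1, 46.8 and 12.5, with a background estimate of 5.92% and 13.6% of the means. Stem held 0, 19.8 and 23.6, below all Tuft libraries, but the difference missed the threshold (adjusted p = 0.14). AbsPro 2 had the highest value of all, 93.5, while AbsPro 1 and 3 had 7.06 and 5.63. SecPDG ranged from 0 to 17.7, and EEC held 10.8 and 0, where the background estimate exceeded the mean. Ghrl shares exon bases with 2 annotated genes on the opposite strand, and since strand was not used in counting, reads of these cannot be told apart.

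Gip (chr11:96024545-96030831, plus strand), an incretin of the upper small intestine, had a mean of 22.5 normalized counts over all libraries. It was highest in Ent, with 61.4, 66.5, 118, 13.7 and 30.5, of which mean the background estimate was 5.56%. Stem held 22.9, 0 and 6.06 and overlapped Ent (adjusted p = 0.0102). In SecPDG only 1 of 4 libraries had counts, 4.97 normalized. Tuft ranged from 1.22 to 38.0, AbsPro from 0 to 29.3, and EEC held 43.4 and 0.

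Ranked by their means, neighbouring cell types mostly did not differ. For Gcg the order was Ent, AbsPro, SecPDG, Tuft, Stem and EEC, and only the step from AbsPro to SecPDG was called. The order for Pyy was Ent, AbsPro, Tuft, Stem, EEC and SecPDG, with a call only between AbsPro and Tuft. Nts had its called step between Ent and AbsPro, and Sst between Tuft and Ent. Sct had 2 called steps, from EEC down to SecPDG and from Ent down to Stem.

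To compare the genes with each other, counts were divided by exon length and each gene was given as a share of the 9 in a library. Sct made up 86.8 to 98.9% of the hormone transcripts in SecPDG and 91.2 and 95.2% in EEC. Ent had no such single hormone, with Gcg at 24.7 to 43.4%, Nts at 12.1 to 34.8%, Sct at 14.1 to 28.7% and Pyy at 9.97 to 21.7%.

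AbsPro resembled Ent in Gcg (15.2 to 40.2%) and Pyy (8.49 to 23.8%), but Nts took at most 6.20% there and Sct 26.5 to 64.4%. Sst had its largest share in Tuft, 8.97 to 36.5%, against 3.51 and 5.28% in EEC, although its level was as high in EEC. Stem libraries varied widely, with Sct between 21.2 and 81.0%, on few counts.

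**Figure D3:**
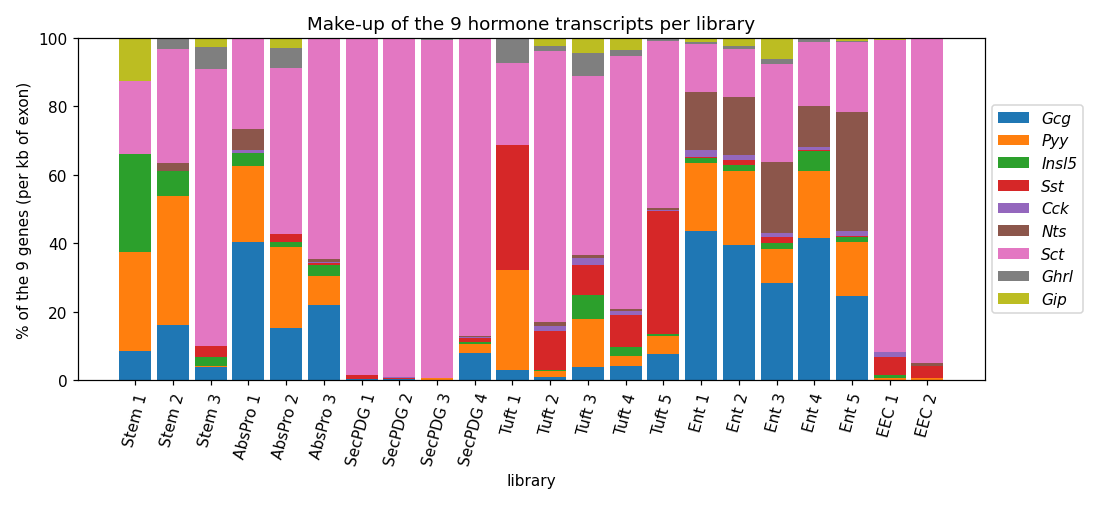
Share of each gene among the 9 hormone transcripts (vertical axis, percent, after division by exon length) in each of the 22 libraries. Sct fills most of the SecPDG and EEC bars, while Ent bars are split between Gcg, Pyy, Nts and Sct.

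Hormone transcripts were also set beside Chga and Chgb, the chromogranins found in the granules of most enteroendocrine cells. The 2 chromogranins summed to 569143 and 1586270.0 normalized counts in EEC, 129 to 418 in Stem, 1869 to 5518 in SecPDG, 3004 to 14024 in AbsPro, 6120 to 25117 in Ent and 1251 to 25453 in Tuft. EEC was thus far above all others in chromogranins, while the sum of the 9 hormones in EEC (6675 and 13162) overlapped the range of Ent (2815 to 8484).

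Per 1000 chromogranin counts, the 9 hormones together came to 11.7 and 8.30 in EEC, 338 to 557 in Ent, 87.6 to 930.4 in Tuft, 253 to 1501 in SecPDG, 274 to 418 in AbsPro and 465 to 3644 in Stem, where both sums were small. Both EEC libraries lay below all others. Gcg alone came to 170 to 319 in Ent and 107 to 244 in AbsPro, and Sct to 27.2 to 82.9 in Ent against 7.82 and 10.5 in EEC. Sst came to 17.3 to 111 in Tuft and 0.322 and 0.677 in EEC, although its levels in these cell types were not told apart. These ratios are descriptions with no test.

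**Figure D4:**
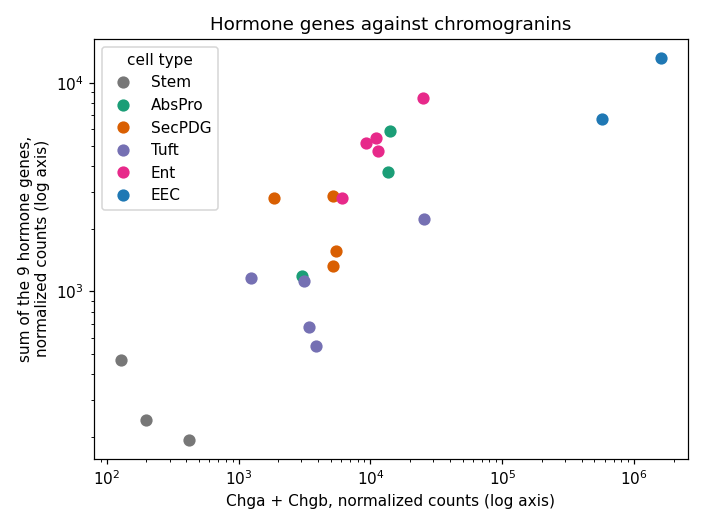
Sum of the 9 hormone genes (vertical log axis) against the sum of Chga and Chgb (horizontal log axis), both in normalized counts, 1 point per library. The EEC libraries lie far to the right of all others, with EEC 1 inside the hormone range of Ent and EEC 2 above it.

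Genes that make and pack hormones were followed in the same fit. Of 14 genes of prohormone processing and granules, 2 were called higher than in Stem in AbsPro, 4 in SecPDG, 4 in Tuft, 7 in Ent and 9 in EEC, none lower. The shares of all genes called in these comparisons were the 0.588%, 4.97%, 12.1%, 22.2% and 19.9% given above. The median log2 change of the list was 2.93, 2.07, 3.68, 5.00 and 8.07, where all genes tested had medians of 0, 0.004, 0.83, 1.17 and 0.68. In AbsPro the called genes were Chgb (5.51 ± 1.00, adjusted p = 0.000545) and Chga (5.03 ± 1.03, adjusted p = 0.00242). Pcsk1, the convertase that cuts proglucagon to GLP-1, was called in SecPDG (2.55 ± 0.40, adjusted p = 2.84e-06) and Tuft (1.88 ± 0.39, adjusted p = 0.000282). It was also among the 9 genes called in EEC. Its mean was highest in EEC, at 1430 normalized counts, against 827 in SecPDG, 507 in Tuft and 140 in Stem. In Ent, where Gcg was highest, Pcsk1 averaged 137, with a background estimate of 19.2% of the mean. Granule genes Scg3 and Vgf, at most 1 count in Stem in total, reached 2378 ± 1073 and 1967 ± 1614 normalized counts (SD, n = 2) in EEC.

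Of 18 transcription factors of enteroendocrine cells, none was called in AbsPro, 4 in SecPDG, 4 in Tuft, 8 in Ent and 10 in EEC, all higher than in Stem. The shares of all genes called were 4.97%, 12.1%, 22.2% and 19.9% in SecPDG, Tuft, Ent and EEC. Their median log2 changes were 1.50, 2.41, 1.96, 2.67 and 5.40, where the medians of all genes were 0, 0.004, 0.83, 1.17 and 0.68. Neurog3, the factor that starts enteroendocrine fate, was called in SecPDG (2.38 ± 0.60, adjusted p = 0.00476), and its target Neurod1 was among those called in EEC (8.16 ± 0.56, adjusted p = 2.19e-17). Pax6, a known activator of the proglucagon gene in other settings, averaged 668 ± 137 (SD, n = 2) in EEC and 178 ± 80.4 (SD, n = 5) in Ent, where the background estimate was 10.3% and 30.9% of the mean.

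Of 21 receptors of the 9 hormones, none was called in AbsPro or SecPDG, 4 in Tuft, 6 in Ent and 7 in EEC, all higher, where 12.1%, 22.2% and 19.9% of all genes were called in Tuft, Ent and EEC. The share of receptors called in Ent was near that of all genes. The median changes were 0, 0.61, 2.23, 3.87 and 3.81, against 0, 0.004, 0.83, 1.17 and 0.68 over all genes. Only 9 of the 21 receptors passed the minimum mean. Medians were also raised in marker lists of immune, stromal, endothelial, and enteric neuron and glia genes. In that order they were 4.57, 2.72, 4.79 and 3.76 in Ent, and 3.69, 2.62, 4.89 and 5.75 in EEC. In Tuft they were 4.00, 1.57, 4.32 and 2.73. Any part of background reads in these medians was not tested. The somatostatin receptor Sstr1 rose by 8.36 ± 0.67 in EEC (adjusted p = 5.94e-16), to 772 and 4361 normalized counts. Sst was high in EEC and in Tuft. In Tuft, Sstr1 averaged 31.2, with a background estimate of 15.7% of the mean, against 133 in Ent, where Sst was low. Glp1r, the receptor of GLP-1, had no count in Stem and averaged 1742 ± 1390.2 (SD, n = 2) in EEC, 79.4 ± 39.3 (SD, n = 5) in Ent and 56.5 ± 26.1 (SD, n = 5) in Tuft. In Ent and Tuft the background estimate for Glp1r was 34.4% and 24.6% of the mean.

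Of 8 peptidases that break down gut peptides, 1 was called higher in AbsPro, SecPDG and Tuft each, Anpep, an aminopeptidase of the brush border, at 2.08 ± 0.41 (adjusted p = 0.0016), 4.31 ± 0.41 (adjusted p = 4.71e-12) and 2.65 ± 0.39 (adjusted p = 4.16e-07). Of all genes, 0.588%, 4.97% and 12.1% were called there, so that the share in Tuft was near that of all genes. In Ent 4 of the peptidases were higher and 2 lower, and in EEC 2 were higher and 1 lower, where 22.2% and 19.9% of all genes were called in either direction. The one lower in EEC was Thop1, with a log2 change of -1.69 ± 0.47 (adjusted p = 0.00294). The median changes of the list were 0.45, 0.19, 0.05, 0.86 and 0.36, below those of all genes in Tuft (0.83), Ent (1.17) and EEC (0.68).

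Of 16 other gut peptides, none was called in AbsPro or SecPDG, 1 in Tuft, 4 in Ent and 4 in EEC, all higher, where 12.1%, 22.2% and 19.9% of all genes were called in Tuft, Ent and EEC, so that the shares in Ent and EEC were near those of all genes. The median changes were 1.27, -0.28, 3.06, 3.98 and 4.94, against 0, 0.004, 0.83, 1.17 and 0.68 over all genes. Only 4 of the 16 passed the minimum mean. In Tuft, Ent and EEC the medians lay inside the range of the marker lists given with the receptors. Calca, which encodes calcitonin gene-related peptide, was called in Tuft (2.99 ± 0.88, adjusted p = 0.00831), Ent (3.87 ± 0.79, adjusted p = 7.59e-05) and EEC (4.20 ± 0.92, adjusted p = 0.000186). Tac1, which encodes substance P, rose by 6.19 ± 0.83 in EEC (adjusted p = 1.93e-08) and by 3.50 ± 1.01 in Ent (adjusted p = 0.00314).

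As a description, the genes whose log2 normalized counts ran most like those of each hormone over the 22 libraries were listed, with Pearson's r, Spearman's rho and no test. These values are shared within cell types and are not independent. Gcg was most like Reg3g (r = 0.83, rho = 0.83), Slc1a1 (r = 0.83, rho = 0.79) and Pyy (r = 0.82, rho = 0.86). Pyy was most like Gcg, Dpep1 (r = 0.82, rho = 0.79) and Nxpe4 (r = 0.81, rho = 0.81). Nts was most like Slfn4 (r = 0.88, rho = 0.72), Mxd1 (r = 0.88, rho = 0.75) and Lrrc19 (r = 0.87, rho = 0.81).

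Sct was most like Cyp2u1 (r = 0.90, rho = 0.75), Vwa5b2 (r = 0.87, rho = 0.67) and Ccdc64 (r = 0.86, rho = 0.77). Sst was most like Hivep2 (r = 0.85, rho = 0.82) and Camk2b (r = 0.83, rho = 0.84). Between the hormones themselves, Gcg ran with Nts at r = 0.74 and with Insl5 at r = 0.72, while Gcg and Sct ran at r = -0.24 and Gcg and Sst at r = -0.17.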

How the data were processed

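The authors aligned paired reads to mm10 (UCSC, iGenome) with STAR 2.5.2a and deposited raw counts per gene from HTSeq 0.6.1p1 run without strand. The 5 entries that name no gene were left out of library sizes and tests; unassigned reads made up 40.9 to 89.7% of uniquely aligned reads. In R 4.3.3, edgeR 4.0.16 (filterByExpr, TMM, glmQLFit with legacy set to FALSE, glmQLFTest) was fitted to all 22 libraries with cell type as the only term. By the study's methods, replicates are independent mice and sorts. A call required an adjusted p under 0.01 (Benjamini-Hochberg over 22781 genes) with the mean normalized count at 50 or more, for which 13188 genes qualified. The depth of 4122122 to 22462518 counts per library limits low genes, and intervals and limits cover counting error only.

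Alternatives were DESeq2 1.42.0, its size factors, library totals, no filter, no minimum mean, another threshold, only 2 cell types, a replicate block, a limit on the background share, each library left out and, added after the data were seen, edgeR's legacy fit. The members and lists were chosen with earlier results of these data known. Text names every member, list genes called against Stem (at most 4 per list and comparison, by size of change) and the 3 genes most like each member with a mean of at least 50, correlated as log2 of the normalized count plus 2. For Sst, 1 gene of the 3 is not reported here. Gene coordinates come from GENCODE on GRCm38, the assembly of mm10, and promoter sequences from RefSeq's GRCm38.p6 table, which held all 9 genes. The deposited splicing and polyadenylation tables were not used here, as their libraries carry no names. Python 3.11.15, pandas 2.3.3 and matplotlib 3.10.9 served for tables and plots.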

Additional observations from a re-analysis of the deposited data

Results flagged for a closer look

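Of 27 groups of 4 or 5 libraries (9 genes in SecPDG, Tuft and Ent), 7 had 1 library far from the rest by Dixon's test. Its error rate of about 1 in 20 holds for normally distributed values. Normalized counts can be skewed and include zeros, and the groups share libraries, so the 7 cannot be set against that rate. SecPDG 4 stood apart in 3 genes, at 466 normalized counts of Gcg against 0 to 8.70 in the other SecPDG libraries, 66.6 of Pyy against 2.84 to 6.74, and 19.6 of Insl5 against 0 to 2.49. Tuft 5 stood apart in 2 genes, at 340 of Gcg against 18.9 to 96.6 and 775 of Sst against 59.4 to 199. Ent 5 was low in Ghrl, at 12.5 against 38.1 to 48.3. SecPDG 2 was the only library of its cell type with counts of Gip, 4 in all or 4.97 normalized, and since the other 3 libraries were at 0 any count would have passed this test, which then says nothing.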

How the results depend on the processing

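Of 81 pairs of a hormone gene and a comparison (against Stem, or of EEC with another cell type), 25 were called, 18 of them in every alternative and with each library left out, and 49 were called nowhere. The other pairs of cell types were not run under the alternatives. The number of genes called in AbsPro against Stem fell from 4 to 1 with edgeR's legacy fit, 1 with DESeq2 and 2 in a fit of only these cell types, and ran from 2 to 4 with 1 library left out. In EEC against Ent it fell from 5 to 2 with the legacy fit and 2 with DESeq2, each time without Pyy, Sst and Nts. In EEC against Tuft it ran from 1 to 2 with 1 library left out. The cause was not tested. Nts in EEC, not called, depended on EEC 2: its log2 change ran from -0.76 to 7.45 against Stem and from -0.86 to 5.45 against SecPDG when single libraries were left out, and without EEC 2 it was the lower of each range. DESeq2's size factors moved the median log2 change of genes over the minimum mean from -0.30 to 0.35 in Ent against Stem, and the share of calls that were higher from 48.4 to 75.6%, and in EEC against Stem from -0.30 to 0.48 and from 54.2 to 77.5%. Deviations from the cell type mean correlated at a median r of 0.002 in 44 pairs of libraries with the same label number. In 154 pairs with different numbers the median was 0.007. Single pairs ran from -0.391 to 0.501 and from -0.552 to 0.624. By this measure the same number did not go with greater likeness, but medians cannot show whether single libraries shared mice or sorts. With the replicate block, 4 hormone genes were called in AbsPro against Stem, 1 in SecPDG, 2 in Tuft, 4 in Ent and 3 in EEC.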
